A study of Mus musculus with 5 samples.

Results

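Liver RNA of C57BL/6J mice was compared with liver RNA of BALB/CByJ mice, 2 of the 5 samples of a series that measured 5 inbred strains on 1 Affymetrix Mouse430_2 array each. C57BL/6J is the black laboratory strain on which the mouse reference genome is built, and BALB/CByJ is a substrain of the albino BALB/c family. Each sample came from a pool of 3 untreated males aged 10 weeks, and liver RNA was extracted with Trizol and RNeasy. The series title names expression loci and copy number, and the other 3 strains (FVB/NJ, NZW/LacJ and RIIIS/J) had males of the same age, pooled and handled in the same way. They are used below only to show where the pair lies. C57BL/6J and BALB/CByJ are the pair of the series with the fewest genes 2-fold apart, 578 genes, against 857 to 1965 for the other pairs of strains.

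The liver clears foreign compounds, makes most plasma proteins and lipoproteins, burns and builds fatty acids, and answers to growth hormone, thyroid hormone, feeding and the clock. Inbred strains carry fixed alleles at every locus, so a pool of one strain can differ from a pool of another at single genes, at neighbouring genes of a duplicated or deleted segment, or at many genes that answer to one signal. Whether any difference below reflects the strain, the 3 animals of a pool or the array was not tested, since a single array per strain offers no replicate check, allows no test and gives no spread. A probe set is a group of short oligonucleotides designed on one transcript, and sequence differences between the strains under the probes were not tested.

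Values are GCRMA intensities on a linear scale, and differences are log2 of the C57BL/6J value minus log2 of the BALB/CByJ value. For each gene the probe set of highest mean intensity, taken over all 5 arrays, was read. A floor of detection at an intensity of 8.22 was taken from 83 probe sets of olfactory, vomeronasal and taste receptors, and lower values were raised to it. Where 1 strain was under the floor the fold is a bound, marked by "at least". Of 18194 genes, 11427 were above the floor in at least 1 of the strains: 10809 in both, 501 in C57BL/6J alone and 117 in BALB/CByJ alone. At least 2-fold apart were 245 genes higher in C57BL/6J (2.14% of the genes tested) and 333 genes lower (2.91%), which makes 578 genes or 5.06% in all. A bound rather than a measured difference stood behind 25 of the higher and 31 of the lower genes. Most of the 501 and of the 117 genes therefore lay less than 2-fold above the floor. At least 4-fold apart were 62 higher and 68 lower genes. The median difference of all genes was 0, and 95% of the genes lay between -1.08 and 0.94. Above 0 were 5358 of the genes tested, and below 0 were 5332. Counts for the gene lists below are to be read beside these numbers and the shares of genes 2-fold apart. The genes nearest to the 2-fold line were Cenpl (1.01) inside and Phldb1 (0.999) outside it among the higher ones, and Bcl2l11 (-1.002) inside and Slc35e3 (-0.998) outside it among the lower ones.

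**Figure D1:**
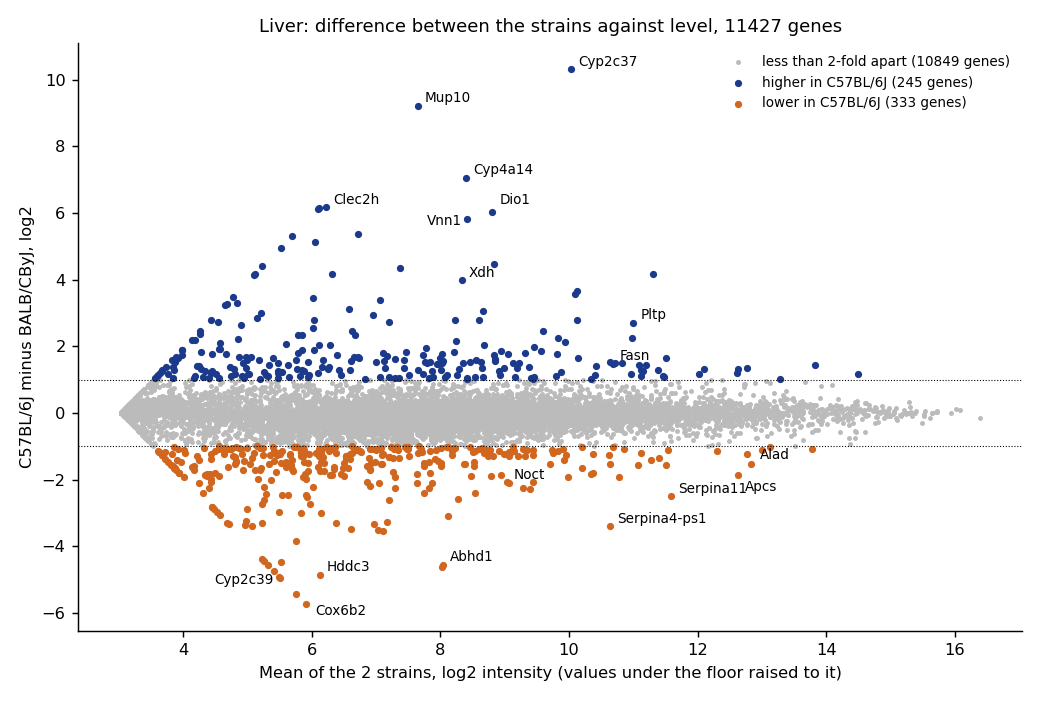
Difference between the strains (vertical axis, C57BL/6J minus BALB/CByJ, log2) against the mean of both strains (horizontal axis, log2 intensity, values under the floor raised to it) for 11427 genes. Blue points are the 245 genes higher in C57BL/6J, orange points the 333 genes lower, and dotted lines mark 2-fold. The straight outer edges on the left are formed by genes with 1 strain at the floor, and Cyp2c37 and Mup10 stand farthest above 0.

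The share of genes 2-fold apart varied with level, at 2.19% in the dimmest of 5 equal groups of genes, 10.6% in the next and 3.11% in the brightest. Level was the mean of the pair after low values were raised to the floor. The dimmest group spanned 8.22 to 18.3, which limits the differences that can occur in it. Actin signal at the 3' end over that at the 5' end, which goes up where RNA is degraded or incompletely copied, had a ratio of 3.93 in C57BL/6J and 3.80 in BALB/CByJ. For Gapdh the ratio was 0.993 in C57BL/6J and 0.9504 in BALB/CByJ. The 24 poly-A spike probe sets, RNAs added during labelling, had a median difference of 0.17, and the 18 hybridisation spikes one of 0.12. The hepatocyte markers were close on both arrays: of 11 markers measured, 0 were 2-fold apart and their median difference was 0.01. Alb, the serum albumin gene, read 68894 in C57BL/6J against 63746 in BALB/CByJ, and Hnf4a, which encodes a transcription factor of hepatocytes, read 3428 in C57BL/6J and 3404 in BALB/CByJ.

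The difference of greatest size was in the Cyp2c family of cytochromes P450, which hydroxylate drugs, steroids and arachidonic acid. Cyp2c37 read 37234 in C57BL/6J and 29.5 in BALB/CByJ, a difference of 10.30 or 1263-fold. RIIIS/J was with C57BL/6J at 47003, while FVB/NJ (28.9) and NZW/LacJ (18.7) were with BALB/CByJ. Cyp2c23 read 10741 in C57BL/6J against 599 in BALB/CByJ (4.17), and the other strains fell at either level, FVB/NJ (10473) and RIIIS/J (10558) at the first and NZW/LacJ (419.9) at the second. Cyp2c55 was higher in C57BL/6J as well (835 in C57BL/6J, 203 in BALB/CByJ), and Cyp2c39 went the other way, under the floor at 6.25 in C57BL/6J and at 248 in BALB/CByJ, at least 30.2-fold lower. The Cyp2c genes are near copies of each other, so a probe set designed on one of them may also bind transcripts of another, and the values are uncertain as to which copy they count. Of 33 measured genes of the families Cyp1 to Cyp3, 5 were higher and 2 lower with a median of 0.01; the others named by the 2-fold rule were Cyp2r1, a vitamin D 25-hydroxylase (1.32), Cyp3a13 (1.43) and Cyp2g1 (-1.92).

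Other genes of foreign-compound handling were 2-fold apart singly, and most of their lists had medians near 0. The regulators and the reductase of the P450 system had 9 measured members, and 1 was 2-fold apart: Alas1, the first enzyme of heme synthesis, at 6217 in C57BL/6J and 12738 in BALB/CByJ (-1.03). Of 23 glutathione transferases 1 was apart, Gstm2, at 1526 in C57BL/6J and 4041 in BALB/CByJ (-1.40). Among 17 glucuronosyl- and sulfotransferases 4 were higher and 2 lower. Sult5a1, a sulfotransferase, read 342 in C57BL/6J and 45.0 in BALB/CByJ (2.93), the neighbours Ugt3a1 (1.80) and Ugt3a2 (1.19) and Ugt2b38 (1.14) were higher too, and Sult1c2 (-2.62) and Ugt2b37 (-1.07) were lower. Sult1c2 read 59.6 in C57BL/6J, 365 in BALB/CByJ and 48.8 to 69.4 in the other strains, so BALB/CByJ stood alone. Tpmt, the thiopurine methyltransferase, read 1243 in C57BL/6J against 3691 in BALB/CByJ (-1.57), and Inmt, the indolethylamine methyltransferase, 23854 in C57BL/6J and 8746 in BALB/CByJ (1.45); both were chosen after their values were seen. The further probe sets of Tpmt gave only -0.29, -0.32 and -0.59. Transporters had 30 measured members, 5 higher and 1 lower, with Slco2a1, a prostaglandin carrier (1.35), Slc47a1, which extrudes organic cations into bile and urine (1.25), and Abcc4 (1.31) among the higher ones and Abcd2, a peroxisomal fatty acid carrier (-1.24), the lower one.

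**Figure D2:**
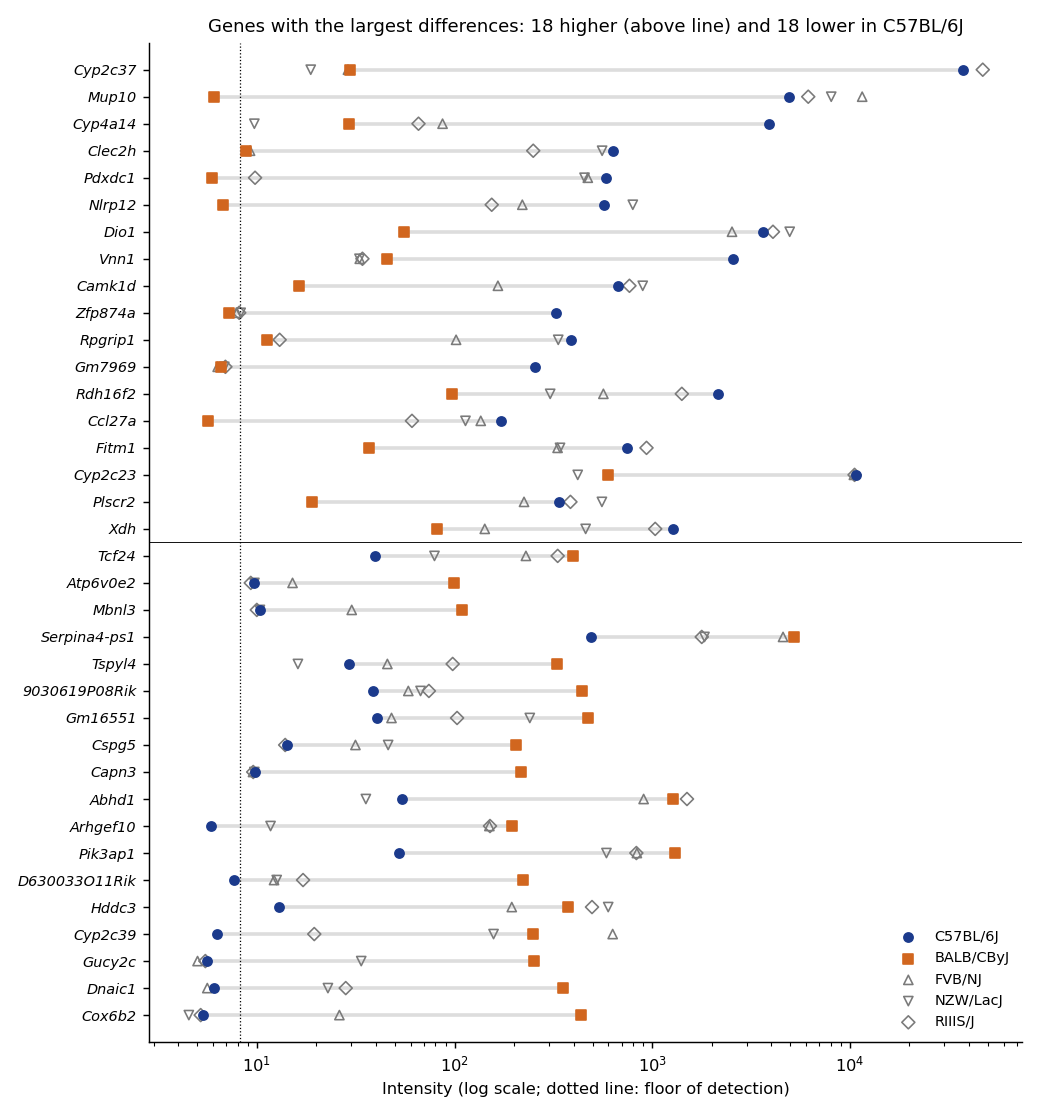
Intensities (log axis) of the genes with the largest differences on each of the 5 arrays, with blue circles for C57BL/6J, orange squares for BALB/CByJ and open symbols for the other 3 strains. In Vnn1, Zfp874a and Gm7969 the C57BL/6J point stands alone, in Dio1, Plscr2 and Capn3 the BALB/CByJ point does, and in Cyp2c37 the strains divide into 2 levels.

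Beyond the Cyp2c genes, the 12 largest measured differences in the higher direction named Cyp4a14, Clec2h, Dio1, Vnn1, Camk1d, Rpgrip1, Rdh16f2, Fitm1, Plscr2 and Xdh. Clec2h, a C-type lectin of the family whose members are ligands of natural killer cell receptors, read 636 in C57BL/6J against 8.83 in BALB/CByJ (6.17), and its further probe sets differed by 5.78 and 3.84. Camk1d, a calcium- and calmodulin-dependent kinase, read 671 in C57BL/6J against 16.4 in BALB/CByJ (5.36), and further probe sets by 4.37 and 3.19. Rpgrip1, known from the photoreceptor cilium, read 389.7 in C57BL/6J and 11.3 in BALB/CByJ (5.11), yet its 3 further detected probe sets differed by only 0.01 to 0.09. Plscr2, a phospholipid scramblase, was low in BALB/CByJ alone: 337 in C57BL/6J, 18.9 in BALB/CByJ and 225 to 556 in the other strains. Xdh, the xanthine oxidoreductase that makes uric acid in the last steps of purine breakdown, read 1275 in C57BL/6J and 81.1 in BALB/CByJ, 15.7-fold higher, with the other strains spread between them at 142 to 1035. It was the only 1 of 11 measured purine breakdown genes that was 2-fold apart, in a list added after values were seen.

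The largest lower bounds in the higher direction were Mup10 (at least 596-fold), Pdxdc1 (at least 71.1-fold), Nlrp12 (at least 69.7-fold), Gm7969 (at least 31.1-fold), Zfp874a (at least 39.9-fold) and Ccl27a (at least 21.0-fold). Nlrp12, an innate immune sensor of the NOD-like receptor family, read 573 in C57BL/6J, 6.73 in BALB/CByJ and 154 to 797 in the other strains, so BALB/CByJ alone was under the floor. Zfp874a, a zinc finger gene, read 328 in C57BL/6J against 7.22 in BALB/CByJ, and C57BL/6J alone was far above the floor. Of the further probe sets of Gm7969, one gave 4.29 and another 0.0050. Pdxdc1 depended on the probe set: the chosen one read 585 in C57BL/6J and 5.92 in BALB/CByJ, while another read 6.25 in C57BL/6J and 1086 in BALB/CByJ, a difference of -7.05 in the opposite direction.

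In the lower direction the largest measured differences were in Hddc3, Pik3ap1, Abhd1, Capn3, Cspg5, Gm16551, 9030619P08Rik, Tspyl4, Serpina4-ps1, Mbnl3, Atp6v0e2 and Tcf24. Hddc3, a phosphohydrolase of the HD-domain family, read 12.99 in C57BL/6J against 375 in BALB/CByJ (-4.85), and C57BL/6J was low against every other strain (195 to 599). Capn3, the muscle calpain, read 9.78 in C57BL/6J against 216 in BALB/CByJ (-4.47), and here BALB/CByJ alone was high, the other strains being at 9.56 to 9.71. Abhd1, a hydrolase of the alpha/beta fold, read 54.0 in C57BL/6J and 1273 in BALB/CByJ (-4.56), with NZW/LacJ near C57BL/6J at 35.6 and FVB/NJ and RIIIS/J near BALB/CByJ at 905 and 1499. Pik3ap1, an adaptor of phosphoinositide 3-kinase known from B cells, differed by -4.64 in its chosen probe set and by -0.17 in its second. The largest bounds were Cox6b2 (at least 53.3-fold lower), the testis form of a cytochrome oxidase subunit, Dnaic1 (at least 43.0-fold), a dynein chain of cilia, Gucy2c (at least 30.7-fold), the intestinal receptor for guanylin, then Cyp2c39, D630033O11Rik and Arhgef10. Cox6b2 read 5.32 in C57BL/6J against 438 in BALB/CByJ, and the other strains read 4.53 to 26.1.

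Genes of lipid metabolism made up several of the named differences. PPAR-alpha is the nuclear receptor that senses fatty acids in the hepatocyte and turns on their oxidation. Of 43 measured members of its target and fatty acid oxidation list, 6 were 2-fold higher in C57BL/6J and 0 lower, yet the list's median was 0.01, with 23 members above 0 and 20 below. Cyp4a14, which hydroxylates the omega end of fatty acids, read 3879.5 in C57BL/6J and 29.3 in BALB/CByJ, 132-fold higher, and 9.71 to 86.9 in the other strains. Cd36, a fatty acid uptake protein, read 1027 in C57BL/6J against 148 in BALB/CByJ (2.80), and its further probe sets differed by 2.09 and 1.71. Both genes were higher in C57BL/6J than on each of the other arrays. Acot1 read 374 in C57BL/6J against 132 in BALB/CByJ. Acot3, a peroxisomal thioesterase, read 233 in C57BL/6J and 42.2 in BALB/CByJ, but for both genes another strain was higher still. Ppara itself read 4172 in C57BL/6J and 2267 in BALB/CByJ (0.88), just inside 2-fold, while Ehhadh (0.31), a peroxisomal oxidation enzyme, and Cpt1a (-0.48), which admits fatty acids to mitochondria, were nearer to 0 and of opposite sign.

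Vnn1 and Vnn3, which lie side by side, encode pantetheinases, enzymes that split pantetheine into the vitamin pantothenate and cysteamine. Vnn1 read 2557 in C57BL/6J against 45.5 in BALB/CByJ (5.81), and the other strains read 33.0 to 34.2. Vnn3 read 1169 in C57BL/6J and 142 in BALB/CByJ (3.04), with 123 to 292 in the other strains. C57BL/6J therefore stood apart from every array in both genes. They were the 2 called members among 13 measured genes of coenzyme A metabolism, a list added after values were seen.

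Fatty acid and triglyceride synthesis had a list median above that of all genes. Of 29 measured members 4 were higher and 1 lower, the median was 0.42, and 19 lay above 0 and 10 below. Acss2, which makes acetyl-CoA from acetate, read 6905 in C57BL/6J and 2777 in BALB/CByJ. Fasn, the fatty acid synthase, read 2725 in C57BL/6J and 986 in BALB/CByJ. Scd1, the stearoyl-CoA desaturase, read 34728 in C57BL/6J and 15420.0 in BALB/CByJ. On the log2 scale they differed by 1.17 to 1.47, and Acacb, a carboxylase that makes malonyl-CoA, by 1.06. The regulators of this pathway were under 2-fold, Srebf1 at 0.42 and Mlxipl at 0.52. Gpat3, a glycerol phosphate acyltransferase, went the other way at 24.97 in C57BL/6J and 201 in BALB/CByJ, with the other strains at 201 to 301, so C57BL/6J alone was low. Cholesterol synthesis had 22 measured members with 0 apart and a median of 0.12, and bile acid synthesis and transport had 25 with 0 apart and a median of 0.07.

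Of 27 measured genes of lipoprotein handling 3 were higher and 2 lower, with a median of 0. Pltp, which moves phospholipids between lipoproteins, read 5238 in C57BL/6J and 802 in BALB/CByJ (2.71), above every other strain (865 to 1412), and its further probe set differed by 2.81. Apom, the sphingosine phosphate carrier of high-density lipoprotein, read 11068 in C57BL/6J against 4379 in BALB/CByJ (1.34), and here BALB/CByJ was below every other strain (9145 to 15615). Apoa4 read 486 in C57BL/6J and 1416 in BALB/CByJ (-1.54), with C57BL/6J the lowest array. Lpl, the lipoprotein lipase, which the adult liver normally holds low, read 895 in C57BL/6J and 3414 in BALB/CByJ (-1.93), with BALB/CByJ the highest array. Fitm1, a membrane protein that helps lipid droplets form, read 746 in C57BL/6J and 36.7 in BALB/CByJ, 20.3-fold higher, and was the only 1 of 15 measured lipid droplet genes that was 2-fold apart.

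**Figure D3:**
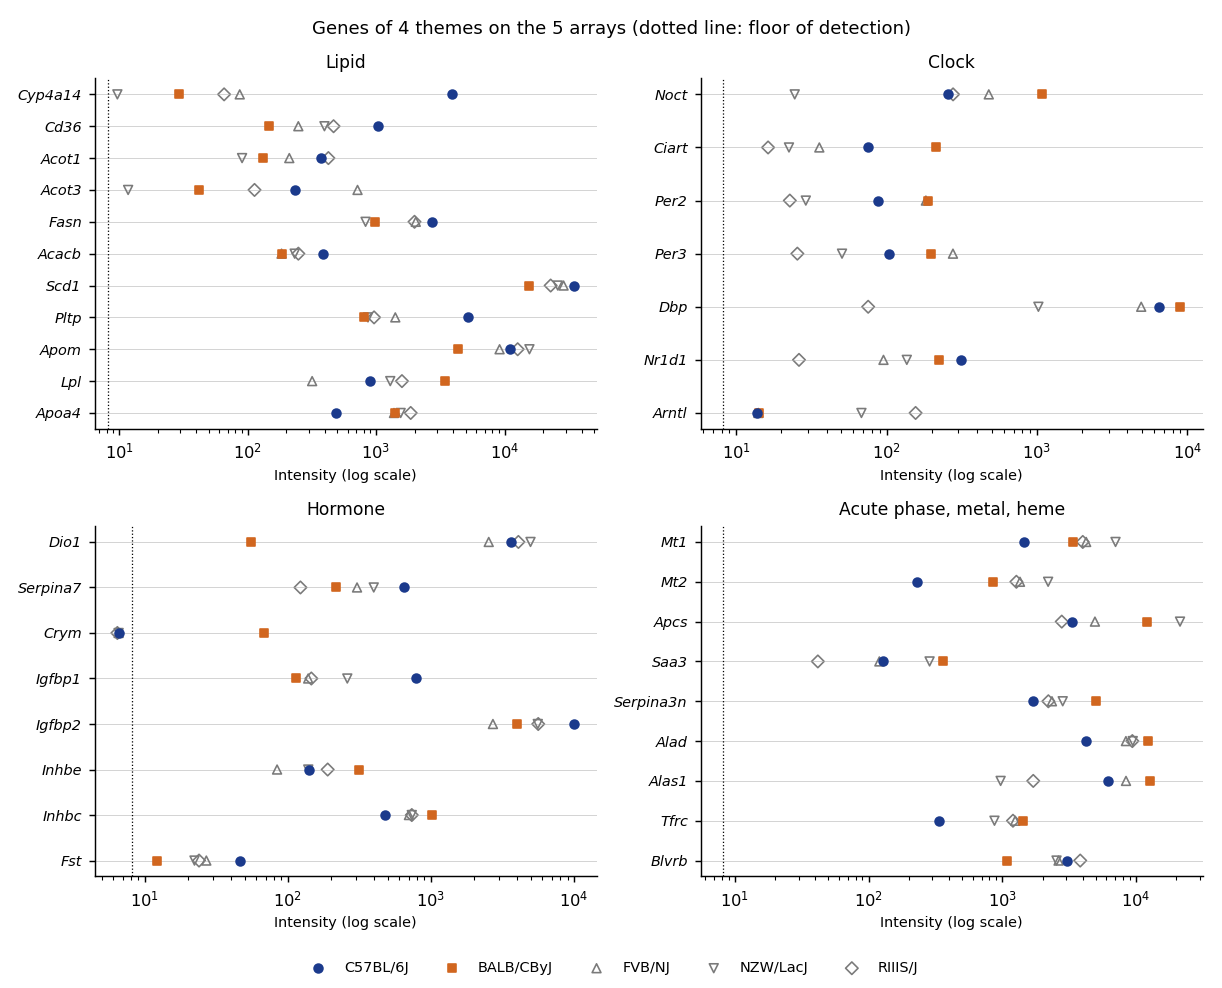
Intensities (log axis) on the 5 arrays for named genes of lipid metabolism, the clock, hormones, and acute phase, metal and heme proteins, with blue circles for C57BL/6J, orange squares for BALB/CByJ, open symbols for the other strains and a dotted line at the floor. C57BL/6J lies highest in Cyp4a14, Cd36 and Pltp and lowest in Mt1, Mt2 and Alad, and the clock genes spread over a wide range on the other arrays.

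The clock genes are read here because the hour of dissection moves them; that hour was not given in the sources used here. Of 12 measured genes that peak near dusk, 0 were higher and 3 lower in C57BL/6J, with a median of -0.48 and 9 of 12 below 0. Noct, a rhythmic phosphatase known as nocturnin, read 255 in C57BL/6J and 1077 in BALB/CByJ (-2.08). Ciart, a repressor of the CLOCK and BMAL1 pair, read 75.6 in C57BL/6J and 212 in BALB/CByJ (-1.49). Per2, another repressor of that pair, read 87.7 in C57BL/6J and 188 in BALB/CByJ (-1.10). Per3 (-0.92) and Dbp (-0.48) were below 0 but within 2-fold, and Nr1d1, whose peak comes earlier in the day, was above 0 (0.49). Arntl, the BMAL1 gene, which peaks near dawn, read 13.7 in C57BL/6J and 14.1 in BALB/CByJ. NZW/LacJ and RIIIS/J differed from both, with Arntl at 68.1 and 156 and Per2 at 29.0 and 22.7. The part of collection time in these differences was not tested.

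The promoter window of Ciart is shown because the CLOCK and BMAL1 pair binds the letters CACGTG, which read the same on both strands. It comes from RefSeq on GRCm38.p6, a build of the C57BL/6J genome, at chr3:95882179-95882478 on the minus strand, and runs from 250 bases before the start of the gene to 50 after it. Capitals mark CACGTG.
Ciart: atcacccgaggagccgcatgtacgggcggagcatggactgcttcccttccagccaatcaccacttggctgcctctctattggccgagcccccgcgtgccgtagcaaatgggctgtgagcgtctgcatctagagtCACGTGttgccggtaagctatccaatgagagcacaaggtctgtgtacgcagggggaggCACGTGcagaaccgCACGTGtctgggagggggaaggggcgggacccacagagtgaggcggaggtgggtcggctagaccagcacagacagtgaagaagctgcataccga
The window held 3 matches. Of 32851 promoter windows of this length 7.15% held at least 1 match and 0.0883% held 3 or more. The window of Noct held 0. A match is a description of the letters in this window, not a bound site or a cause of the difference, and the BALB/CByJ sequence was not examined.

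Among genes of thyroid hormone handling Dio1 had the largest difference. Dio1, the type 1 deiodinase that turns thyroxine into the active hormone and clears its inactive form, read 3625 in C57BL/6J and 55.3 in BALB/CByJ, 65.5-fold higher. FVB/NJ (2533), NZW/LacJ (4959.9) and RIIIS/J (4082) were within 2-fold of C57BL/6J, so BALB/CByJ alone was low. Crym, a cytosolic protein that binds the active hormone, showed the reverse, with 6.58 in C57BL/6J, 68.5 in BALB/CByJ and 6.45 to 6.58 in the other strains, at least 8.34-fold lower in C57BL/6J, which was under the floor. Serpina7, the thyroxine-binding globulin of plasma, read 652 in C57BL/6J and 216 in BALB/CByJ (1.59). These were the 3 of 11 measured members that were 2-fold apart, and the list's median was 0. The receptor gene Thra differed by -0.25 and Thrsp, a hormone-responsive gene of lipogenic tissue, by -0.22.

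Of 17 measured genes of the growth hormone and IGF1 axis, 4 were higher and 0 lower, with a median of 0.10. Igfbp1, which binds insulin-like growth factors and which insulin represses, read 788 in C57BL/6J and 114 in BALB/CByJ (2.80), above every other strain (139 to 260.3). Igfbp2 read 9991 in C57BL/6J and 3994 in BALB/CByJ (1.32). Bcl6, a repressor that growth hormone controls in a sex-dependent way, read 1009 in C57BL/6J against 357 in BALB/CByJ (1.498), and Socs3, an inhibitor of cytokine signalling, differed by 1.04. Igf1 differed by -0.41 and Ghr, the growth hormone receptor, by -0.11. The genes of glucose metabolism showed little more than the binding proteins: the same Igfbp1 and Igfbp2 were the 2 called members of 25, with Pck1, the gatekeeper of gluconeogenesis, at -0.75 and Gckr, the regulator of hepatic glucokinase, at 0.14.

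Further groups of activins, secreted hormones and vitamin A enzymes were drawn up after values were seen. Inhbc and Inhbe, neighbouring genes for activin subunits made by hepatocytes, were both lower: Inhbc read 474 in C57BL/6J against 1019 in BALB/CByJ, and Inhbe 140.1 in C57BL/6J and 313 in BALB/CByJ. Fst, which encodes the activin antagonist follistatin, read 46.1 in C57BL/6J against 12.2 in BALB/CByJ (1.92), and Acvr1b, an activin receptor, differed by -1.30. These were the called members among 15 measured, 1 higher and 3 lower. Enho, which encodes the peptide adropin, read 286 in C57BL/6J and 1354 in BALB/CByJ (-2.24). Of 19 measured retinoid genes 4 were higher and 1 lower with a median of 0.16. Rdh16f2, of the retinol dehydrogenase family, read 2158 in C57BL/6J and 96.9 in BALB/CByJ (4.48), its neighbour Rdh16 differed by 1.14, and Cyp26a1, which degrades retinoic acid, by 1.77. The carotenoid cleavage enzymes lay on opposite sides of 0, Bco2 at 2.03 and Bco1 at -1.63.

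Zhx2 represses fetal liver genes after birth, and a retroviral insertion in it, with persisting alpha-fetoprotein, is known from the substrain BALB/cJ. Zhx2 read 77.7 in C57BL/6J, 4.78 in the pool labelled BALB/CByJ and 36.9 to 74.7 in the other strains. It was at least 9.45-fold higher in C57BL/6J, the BALB/CByJ value being under the floor. Afp, the alpha-fetoprotein gene, read 40.6 in C57BL/6J and 149 in BALB/CByJ (-1.87), with 17.9 to 40.6 elsewhere. Lpl, given above, is a further gene of this list that was lower in C57BL/6J. Those 3 were the members 2-fold apart among the 7 measured of the list, whose median was 0.23, and Gpc3 was under the floor in both strains. Which substrain's Zhx2 allele this pool carried was not tested.

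The major urinary proteins are lipocalins that male liver exports to urine as scent carriers, and their many genes are near copies, so a probe set can read several. Mup10 read 4893 in C57BL/6J and 6.10 in BALB/CByJ, with 6155 to 11538 in the other strains. Mup5, the next measured gene, read 282 in C57BL/6J and 32.8 in BALB/CByJ, with 259 to 306 in the others. Only 4 of the 17 listed genes of the family were on the array, so unmeasured ones may lie between. BALB/CByJ alone was low in both, whereas Mup3 read 36559.7 in C57BL/6J and 37379.8 in BALB/CByJ (-0.03). Of 19 measured male-biased liver genes 5 were higher and 1 lower with a median of 0.01, and of 12 female-biased genes 1 was higher and 1 lower with a median of 0.04. Susd4, a complement regulator, read 435 in C57BL/6J against 41.3 in BALB/CByJ (3.40), and Serpina12, the adipokine vaspin, 1668 in C57BL/6J and 489.9 in BALB/CByJ (1.77), with all other strains above both. Cspg5, a proteoglycan known from neurons, was the male-biased gene that was lower, at 14.2 in C57BL/6J and 205 in BALB/CByJ (-3.85).

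Acute phase proteins are plasma proteins that the liver makes more of in inflammation. Of 30 measured members 1 was higher and 6 were lower in C57BL/6J, with a median of -0.10 and 20 of 30 below 0. Over all genes tested 2.14% were higher and 2.91% lower. Apcs, the serum amyloid P component, read 3324 in C57BL/6J against 12028 in BALB/CByJ (-1.86), and NZW/LacJ was higher than both at 21309. Serpina3n read 1698 in C57BL/6J and 5008 in BALB/CByJ (-1.56). Saa3 read 128 in C57BL/6J against 362 in BALB/CByJ (-1.50), and Lcn2, an iron-siderophore carrier, differed by -1.23 at low level. Not all of the family shared the direction, since Saa1 differed by 0.25, Hp, the haptoglobin gene, by -0.12, and Socs3 was the member that was higher.

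The remaining lower members, Mt1 and Mt2, are neighbouring genes of metallothioneins, small proteins that bind zinc and copper. Mt1 read 1459.8 in C57BL/6J, 3372 in BALB/CByJ and 3995 to 7021 in the other strains (-1.21). Mt2 read 228 in C57BL/6J, 855 in BALB/CByJ and 1274 to 2201 in the other strains (-1.90). C57BL/6J was the lowest array for both. A further probe set of Mt1 was near the floor and showed no such difference, with 10.99 in C57BL/6J and 10.5 in BALB/CByJ. Their promoter windows are shown because zinc acts on them through metal response elements, whose core was searched as TGCACNC and TGCGCNC on both strands. Both windows are from RefSeq on GRCm38.p6, plus strand, Mt1 at chr8:94178839-94179138 and Mt2 at chr8:94172368-94172667, from 250 bases before the start to 50 after it, with the cores in capitals.
Mt1: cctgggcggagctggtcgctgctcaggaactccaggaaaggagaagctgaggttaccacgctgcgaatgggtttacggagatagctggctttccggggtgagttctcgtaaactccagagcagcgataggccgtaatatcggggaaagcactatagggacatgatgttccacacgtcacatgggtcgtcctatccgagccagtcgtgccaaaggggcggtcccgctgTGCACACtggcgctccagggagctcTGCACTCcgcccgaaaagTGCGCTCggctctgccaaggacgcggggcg
Mt2: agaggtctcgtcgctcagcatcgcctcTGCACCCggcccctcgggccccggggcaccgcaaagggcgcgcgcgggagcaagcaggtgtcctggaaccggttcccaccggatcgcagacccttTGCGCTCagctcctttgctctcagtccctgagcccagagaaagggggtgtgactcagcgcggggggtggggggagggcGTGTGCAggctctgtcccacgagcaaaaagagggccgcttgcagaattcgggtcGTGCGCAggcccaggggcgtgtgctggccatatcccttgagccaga
The Mt1 window held 3 cores and the Mt2 window 4, where 25.7% of the 32851 windows held at least 1 core of either form and 1.97% held 3 or more. The matches are letters of the reference sequence, and binding there was not measured.

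Iron and heme genes had 29 measured members, of which 1 was higher and 5 were lower, with a median of -0.11 and 19 below 0; Mt1, Mt2 and Alas1 are 3 of the 5. Alad, the second enzyme of heme synthesis, read 4257 in C57BL/6J against 12311 in BALB/CByJ (-1.53), and 8396 to 9444 in the other strains. Hdhd3, beside it, read 105 in C57BL/6J against 376 in BALB/CByJ (-1.83), and the segment with both genes is known to vary in copy number among inbred strains. Tfrc, the transferrin receptor, read 337 in C57BL/6J and 1432 in BALB/CByJ (-2.09), but its further probe sets gave -1.73, -0.43 and 0.03. Blvrb, a biliverdin reductase, was the member that was higher, at 3053 in C57BL/6J and 1083 in BALB/CByJ (1.49), with BALB/CByJ the lowest array. Hamp, the iron hormone hepcidin, differed by -0.09.

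Nitrogen and sulfur metabolism had few called members and medians slightly above 0. Urea cycle and amino acid breakdown had 36 measured genes, 1 higher and 1 lower, with a median of 0.14. Kmo, an enzyme of tryptophan breakdown, read 4159.7 in C57BL/6J and 1716 in BALB/CByJ (1.28). The methionine and cysteine list had 21 measured genes, 1 higher and 0 lower, with a median of 0.18: Nnmt, which methylates nicotinamide, read 2913 in C57BL/6J and 424 in BALB/CByJ (2.78). Car5a, a mitochondrial carbonic anhydrase that feeds bicarbonate to the urea cycle, read 1391 in C57BL/6J against 354 in BALB/CByJ (1.97), and Ddah1, which degrades methylarginines, 3747 in C57BL/6J and 318 in BALB/CByJ (3.56); both were chosen after their values were seen. All further probe sets of Ddah1 were higher in C57BL/6J, by 2.92 to 3.92.

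Of 21 measured genes of the amino acid and endoplasmic reticulum stress response 1 was higher and 2 were lower, with a median of -0.16 and 16 of 21 below 0. Asns, the asparagine synthetase that lack of amino acids induces, read 60.2 in C57BL/6J, 9.11 in BALB/CByJ and 15.7 on each of the other arrays (2.72). Psph, of serine synthesis (-1.04), and Creld2, a chaperone of the endoplasmic reticulum (-1.03), were lower, so Asns stood against its list. The Asns promoter window is shown because the factor ATF4 acts on it through the letters TGATGAAAC, searched on both strands and set in capitals. It is from RefSeq on GRCm38.p6 at chr6:7693160-7693459 on the minus strand, from 250 bases before the start to 50 after it.
Asns: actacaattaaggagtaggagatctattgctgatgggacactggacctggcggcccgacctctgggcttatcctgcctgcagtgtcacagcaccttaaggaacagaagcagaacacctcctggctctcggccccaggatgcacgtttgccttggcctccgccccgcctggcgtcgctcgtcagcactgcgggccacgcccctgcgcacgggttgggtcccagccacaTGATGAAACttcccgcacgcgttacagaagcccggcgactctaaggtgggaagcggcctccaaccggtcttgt
The window held 1 match, and 0.247% of the 32851 windows held at least 1. Again the match describes the reference letters only.

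Heat shock proteins had 19 measured members, 0 higher and 2 lower, with a median of -0.13; Hspa1b read 644 in C57BL/6J against 1540.0 in BALB/CByJ, and Hsph1 357 in C57BL/6J and 811 in BALB/CByJ. Of 19 immediate early genes, which answer within minutes to many stimuli, 1 was apart: Egr1, at 791 in C57BL/6J and 267 in BALB/CByJ (1.57). The housekeeping lists were close to 0. Oxidative phosphorylation subunits had a median of -0.02 over 45 genes with Cox6b2 alone apart, ribosomal proteins 0.01 over 26 with Rps6 alone apart (1.64), and proteasome subunits -0.08 over 35 with 0 apart. Liver transcription factors and nuclear receptors had 0 of 32 apart and a median of 0.

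Hepatocytes around the central vein and around the portal tract use different genes, and the central list was the higher of the pair. Of 21 measured pericentral genes 2 were higher and 0 lower, the median was 0.45 and 17 were above 0. Rhbg, an ammonium transporter, read 94.1 in C57BL/6J and 31.3 in BALB/CByJ (1.59). Slc1a2, a glutamate transporter, read 1071 in C57BL/6J and 414 in BALB/CByJ (1.37), although its further probe sets gave 1.04 and -0.15. Glul, the glutamine synthetase of the innermost cells, differed by 0.48. Of 17 periportal genes 0 were higher and 2 lower, Apoa4 and Ass1, with a median of 0.09. The call for Ass1, the argininosuccinate synthase, rested on a probe set at 53.7 for C57BL/6J against 154 for BALB/CByJ (-1.52). Whether that probe set counts the main transcript of Ass1 was not tested.

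**Figure D4:**
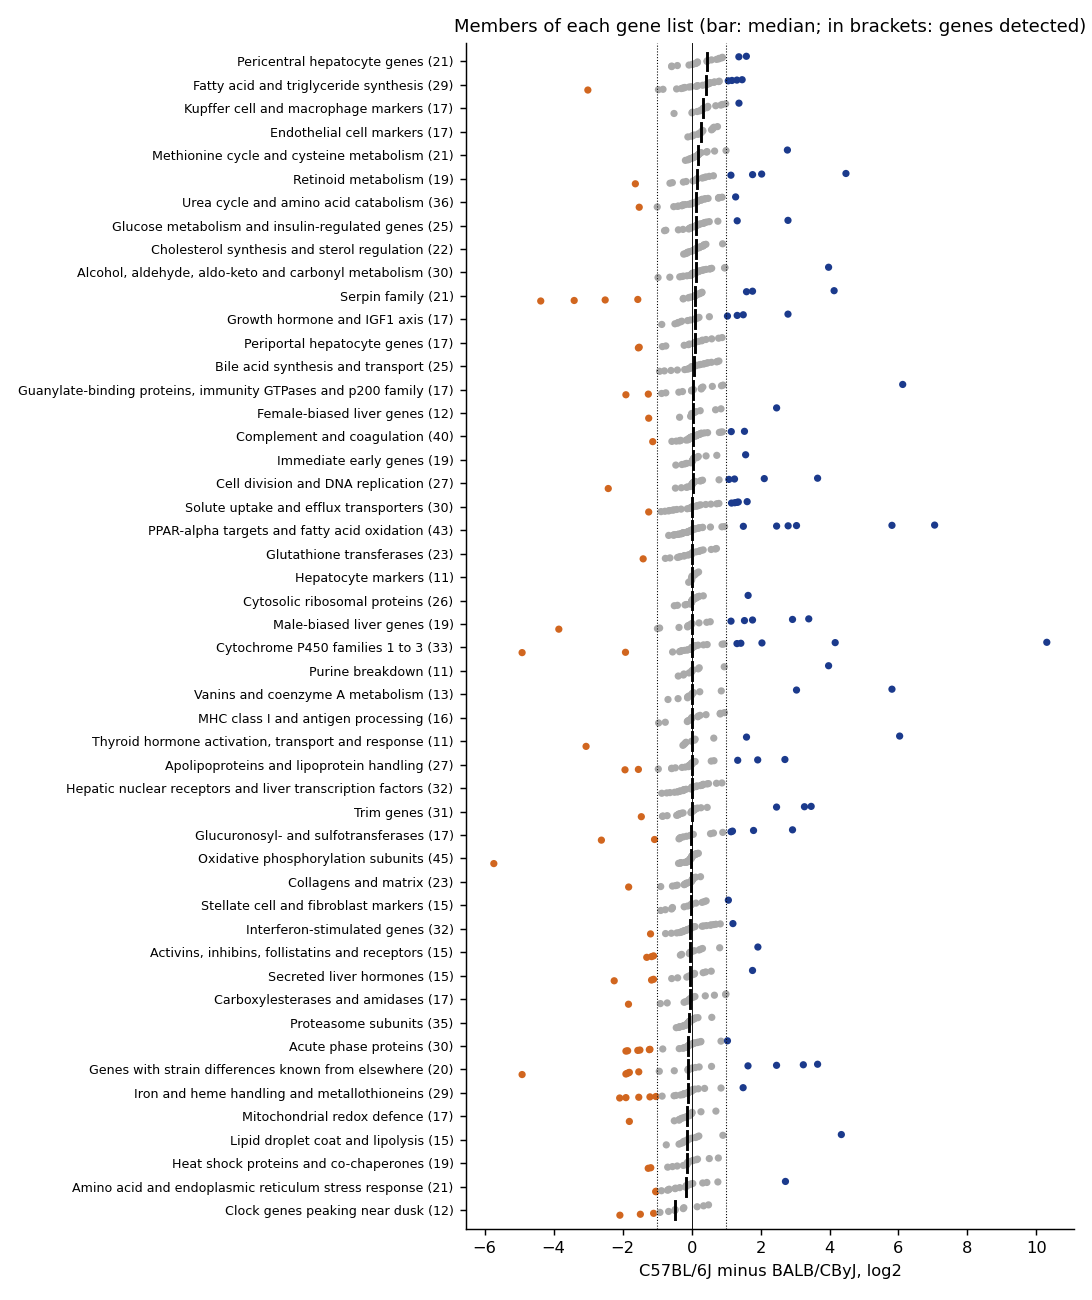
Differences (horizontal axis, C57BL/6J minus BALB/CByJ, log2) of the measured members of each larger gene list, 1 point per gene (blue at least 2-fold higher, orange at least 2-fold lower, grey the rest), with a bar at the list's median and the lists ordered by it. Pericentral genes and fatty acid synthesis lie at the top with medians of 0.45 and 0.42, the dusk clock genes at the bottom with -0.48, and most medians lie close to 0.

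Class II molecules of the major histocompatibility complex present antigen on B cells, dendritic cells and macrophages, and 3 of their 7 measured genes were 2-fold higher in C57BL/6J. H2-Aa read 476 in C57BL/6J and 141 in BALB/CByJ (1.75), H2-Ab1 386 in C57BL/6J against 116 in BALB/CByJ (1.74), and H2-Eb1 274 in C57BL/6J and 89.4 in BALB/CByJ (1.62). These genes differ in sequence between strains, and 1 further probe set of H2-Aa gave -0.14 where another gave 1.76. Those of H2-Ab1 gave 1.47 and 0. Cd74, the invariant chain that escorts class II molecules, differed by 0.91, and H2-Ea, a further class II chain, by -0.77. The list had 0 lower members and a median of 0.91. Class I and antigen processing had 0 of 16 apart with a median of 0.00.

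Markers of liver cell types other than hepatocytes were read beside these values, and no list of dendritic cell markers was drawn up. In a bulk sample fewer cells of a type and less RNA per cell cannot be told apart. Summed intensities below cover every marker on the array, also those under the floor. Over all 11427 genes tested 5358 were above 0 and 5332 below. Of 17 measured Kupffer cell and macrophage markers 16 were above 0 with a median of 0.33. Adgre1, the F4/80 antigen, was the 1 that was 2-fold apart, at 123 in C57BL/6J and 47.6 in BALB/CByJ. All 18 of these markers on the array summed to 11767 in C57BL/6J against 11087 in BALB/CByJ. Of 17 endothelial markers 15 were above 0 with a median of 0.28, and the sum was 4608 in C57BL/6J and 3858 in BALB/CByJ. B cell markers had 5 of 10 genes measured, with Cd79a and Pax5 under the floor in both strains. All 10 summed to 256 in C57BL/6J and 274 in BALB/CByJ. The median of the 5 measured was 0.03. Of these 1 was lower, Jchain, the joining chain of secreted antibody, at 10.0 in C57BL/6J and 30.8 in BALB/CByJ (-1.62). T and natural killer cell markers had 3 of 14 measured. All 14, most of them under the floor, summed to 95.5 in C57BL/6J and 92.6 in BALB/CByJ. The part of these cells in the class II difference was not tested.

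Of 32 interferon-stimulated genes 1 was higher, Oasl1 (1.20), and 1 lower, Ifit1 (-1.19), with a median of -0.04. The list of guanylate-binding proteins, immunity GTPases and the p200 family had 17 measured members, 1 higher (by at least 6.12) and 2 lower, with a median of 0.05. The lower ones were Ifi202b and Igtp. Ifi202b, a p200 protein long known to differ between strains, read 10.6 in C57BL/6J against 39.9 in BALB/CByJ (-1.91). Igtp, an immunity GTPase, read 452 in C57BL/6J and 1078 in BALB/CByJ (-1.26). Among the Trim genes, some of which are restriction factors and near copies of each other, 3 were higher in C57BL/6J by bounds: Trim34a at least 11.1-fold, Trim30d at least 9.67-fold and Trim12a at least 5.52-fold. A further probe set of Trim34a gave -0.44 and one of Trim30d 0.14, while the related Trim30a differed by 0 and Trim12c by -0.83. Of 31 measured Trim genes, a list added after values were seen, no other was 2-fold higher and 1 was lower, Trim26 (-1.46). Complement and coagulation had 40 measured members, 2 higher and 1 lower, with C6 at 1.53, F12 at 1.15 and F11 at -1.13.

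Several genes for which strain differences are known from elsewhere were among those apart. Of 20 measured members of such a list 4 were higher and 6 lower, against 2.14% and 2.91% of all genes tested. The list was chosen with earlier results of these data known, so its count is no independent check. Nnt, the mitochondrial transhydrogenase that makes NADPH, in which C57BL/6J is known to carry a deletion, read 708 in C57BL/6J, 2475 in BALB/CByJ and 1616 to 2429.6 in the other strains (-1.81), and its further probe set gave -2.14. It was the 1 of 17 measured genes of mitochondrial redox defence that was 2-fold apart. Pttg1, the securin of cell division, read 3948 in C57BL/6J and 314 in BALB/CByJ (3.65), above every other strain (166 to 552). The cell division list did not share that size, with 27 measured members, 4 higher, 1 lower and a median of 0.03; Rrm2 (2.11), Mcm6 (1.24) and Ccnd1 (1.08) were higher, and Spc25, a kinetochore protein, was lower (-2.42). Bcat2, a branched-chain aminotransferase, read 74.1 in C57BL/6J and 23.8 in BALB/CByJ (1.64). Lgals1, the galectin-1 gene, was chosen after its values were seen and read 1820.1 in C57BL/6J and 331 in BALB/CByJ (2.46), with a further probe set at 2.90.

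The order of genes along the chromosomes was read next, since the series title names copy number. Of the 11427 genes 11408 could be placed in the RefSeq gene order, and 36 runs of adjacent measured genes were 2-fold apart in the same direction, 9 higher and 27 lower, with 76 genes in all. The longest run was in the serpin cluster, protease inhibitors secreted by the liver. Serpina4-ps1 read 491 in C57BL/6J and 5197 in BALB/CByJ (-3.41), followed by Serpina5 (-1.55), Serpina3a (-4.38) and Serpina3n (-1.56), where Serpina5 and Serpina3a are bounds. The members of this run did not share a strain pattern. C57BL/6J alone was low in Serpina4-ps1 (1780 to 4590 in the other strains), and BALB/CByJ alone was above the floor in Serpina5. In Serpina3a RIIIS/J (224) was with BALB/CByJ (171), and in Serpina3n neither strain of the pair stood apart. Close by, Serpina11 (1285 in C57BL/6J, 7304 in BALB/CByJ, -2.51) and Serpina9 (-3.30) were lower as well, with Serpina12 higher between the runs (1.77). Serpina10, Serpina6, Serpina1b and Serpina1c at one end of the cluster were close to 0. A list of 21 measured serpins, which did not hold Serpina5 and Serpina9, had 3 higher and 4 lower members. Copies of serpin genes are alike, so their probe sets may read each other.

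The run of H2-Ab1, H2-Aa and H2-Eb1 is given above, and the other run of 3 was Unc45a, Hddc3 and Man2a2. Unc45a, a myosin chaperone, differed by -1.27 (-0.05 in a further probe set), Hddc3 by -4.85 and Man2a2, a mannosidase of N-glycan processing, by -1.91, while Ngrn, 4 genes away, differed by -1.29 and the genes between by less than 2-fold. Runs of 2 held Vnn3 and Vnn1, Mup10 and Mup5, Rdh16 and Rdh16f2, Ugt3a1 and Ugt3a2, Nlrp12 and Myadm, and Ccl27a and Gm13306 among the higher genes. Among the lower ones were Mt2 and Mt1, Hdhd3 and Alad, Inhbe and Inhbc, Dnaic1 and Enho, Kdm2b and Orai1, and Ints10 and Lpl. Both genes stood apart in the same strain in the Vnn, Mup and Mt pairs, but not in every run. BALB/CByJ stood apart in Dnaic1, Kdm2b and Lpl, and C57BL/6J in their neighbours Enho, Orai1 and Ints10. Copy number itself was not measured in the values used here.

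**Figure D5:**
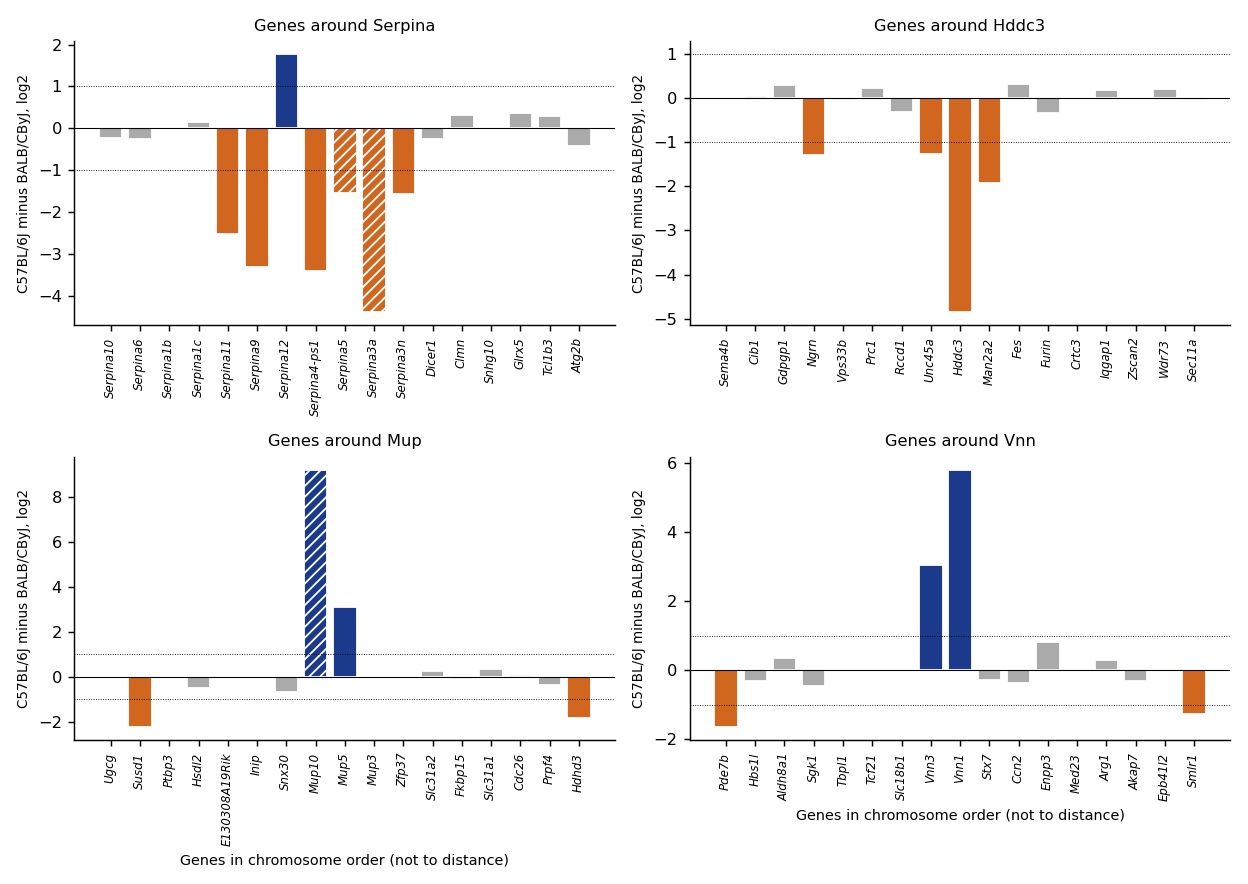
Differences (vertical axis, C57BL/6J minus BALB/CByJ, log2) of neighbouring measured genes in chromosome order around the Serpina, Hddc3, Mup and Vnn genes, with blue bars for genes at least 2-fold higher, orange bars for genes at least 2-fold lower, grey bars for the rest, hatching for bounds and dotted lines at 2-fold. Large bars stand next to each other in each panel, and the genes on either side are mostly close to 0.

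The other strains show on which side of the pair a difference lay. C57BL/6J was at least 2-fold beyond every other array in 59 of the 245 higher genes, and BALB/CByJ was beyond every other array in 52, which left 134 in which neither stood alone. Of the 333 lower genes C57BL/6J stood alone in 49, BALB/CByJ in 94, each of them in 1 and neither in 189. Taken over all 578 genes, RIIIS/J was nearer to C57BL/6J in 335 and nearer to BALB/CByJ in 243, NZW/LacJ in 327 and 251, and FVB/NJ in 293 and 285. At least 8-fold apart were 60 genes, and in 26 of them each of the other strains lay within 2-fold of one or the other of the pair. In 7 of the 26 C57BL/6J was alone at its level, namely Vnn1, Pttg1, Hddc3, Gpat3, Olig1, Zfp874a and Gm7969. In 9 BALB/CByJ was alone, namely Dio1, Mup5, Plscr2, Capn3, Crym, Iqca, Nbdy, Atp6v0e2 and 9030619P08Rik. The other 10 split the strains, among them Cyp2c37, Cyp2c23, Abhd1, Arhgef10, Serpina3a and Cyfip2.

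The gap between the probe sets of a gene shows how far readings of the same gene differ within these arrays. Further probe sets are the dimmer ones, and values under the floor are raised to it, so the gap is not technical spread alone. Over 8622 further probe sets of measured genes the gap to the chosen one had a median size of 0.20 and a 95th percentile of 0.95 on the log2 scale. Of the 578 genes 210 had a further measured probe set, 312 in all, of which 241 lay in the same direction, 112 of them by at least 2-fold, 60 in the opposite one, and 11 read equal in both strains. In 146 of the 210 genes all further probe sets lay in the same direction. Opposite by at least 2-fold were 3 probe sets, those of Pdxdc1, Slc2a9 and Gm6958. Among genes named above, some had a further probe set much nearer to 0 than the chosen one. Examples were Fst (0.08), Per2 (-0.30), Socs3 (0.19), Cyfip2 (-0.68), Trim26 (-0.33), Orai1 (-0.41) and Ints10 (-0.12). Slco2a1 had such probe sets at 0.45 and 0.02, while another gave 1.22. Probe sets of a gene share the pool and the array, so this agreement covers neither animals nor labelling.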

How the data were processed

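The authors' deposited table holds 45101 probe sets for 5 arrays as linear-scale intensity. Per the submitters' processing notes, GCOS and GCRMA produced it. Their versions and settings, the array batches and the hour of collection are not given in the sources used here, and the precision of the comparison is limited by 1 array per strain. Equal values on several arrays occurred among the deposited intensities, and 6.45% of the genes tested had equal values in both strains. Bright genes were among those with ties, such as Kmo at 3185.4 in both FVB/NJ and NZW/LacJ. By the platform's annotation 34958 probe sets had 1 gene, 932 several and 9211 none, and 34754 of the first kind matched RefSeq by gene identifier. RefSeq served for names, gene order and promoter windows.

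The deposited intensities were converted to log2 here. The floor was the 95th percentile over receptor probe sets, 8.22 in intensity or 3.04 in log2; lower values were raised to it, and genes above it in either strain were compared at a threshold of 2-fold. Named were the 12 largest measured differences and 6 largest bounds per direction, list members past 2-fold or otherwise with high means, and runs of 3 or more neighbours. The members, 62 lists (6 of them added after values were seen) and settings were chosen with earlier results of these data known. Tried as alternatives were the 99th percentile as floor, no floor, other choices of probe set, quantile normalisation, a loess correction with span 0.3, log2 of the value plus 32, and a 4-fold threshold. The scripts were tested on simulated data. Tools were statsmodels 0.14.6 for loess, pandas 2.3.3 and numpy 2.4.6 for tables, matplotlib 3.10.9 for figures, under Python 3.11.15.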

Additional observations from a re-analysis of the deposited data

How the results depend on the processing

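The 245 higher and 333 lower genes stayed within 1.5 times those counts under a floor at the 99th percentile (190 and 261), no floor (256 and 344), averaging all probe sets per gene (187 and 228), a probe set chosen by the 2 strains alone (241 and 339), removal of probe sets with shared-sequence suffixes (203 and 288), quantile normalisation (279 and 290) and a loess correction (277 and 300). The last pair of settings made the directions more even. Similar counts did not always mean the same genes. Averaging kept 166 of the 245 higher and 214 of the 333 lower genes. Removal of the suffixed probe sets kept 191 and 269. With log2 of the value plus 32, which shrinks dim genes by construction, the counts were 145 and 177, and at 4-fold they were 62 and 68. Chosen after seeing the data, leaving out genes with a further probe set in the opposite direction gave 228 and 297, and leaving out those with an equal one too gave 224 and 290. Named genes kept their sign in 1122 of 1124 values under the other settings, the exceptions being Mt1 (0.060) and Trim34a (-0.44) without the suffixed probe sets. The genes counted were 2-fold apart on these same arrays, so settings that keep the probe set could hardly reverse a sign. This count is therefore no independent check. Of 74 further probe sets of named genes 6 had the other sign: Mt1 (0.060), Trim34a (-0.44), H2-Aa (-0.14), Slc1a2 (-0.15), Tfrc (0.025) and Pdxdc1 (-7.05); the cause was not tested. Of 495 list medians under other settings 5 moved by more than 0.55, the SD of the gap between probe sets. They were the median of the major urinary protein list (1.77), which was 3.11 under the higher floor and without suffixed probe sets and 1.22 with 32 added, and that of the exocrine pancreas list (-0.04), which was -0.91 from 1 gene under the first 2 of these settings. The median of all genes stayed between -0.042 and 0.039. No paired analysis was possible because there was 1 array per strain. Signal near the floor limits the dim genes, and where a strain was under the floor only a bound can be given.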

Other observations

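Single genes outside the lists that were 2-fold apart, chosen after their values were seen, touched further functions of the liver. Among transport and vitamin genes, Slc26a1, a sulfate and oxalate exchanger, read 1972 in C57BL/6J against 417 in BALB/CByJ (2.24), and Aqp8, a water channel of hepatocytes, read 1850.3 in C57BL/6J and 915 in BALB/CByJ (1.02). Ttpa, which returns vitamin E to plasma, read 14073 in C57BL/6J and 6971 in BALB/CByJ (1.01). The folate carrier Slc46a1 went the other way, at 615 in C57BL/6J and 1349 in BALB/CByJ (-1.13). Pctp, a phosphatidylcholine transfer protein, read 2047 in C57BL/6J and 470.4 in BALB/CByJ (2.12). Gch1, the first enzyme of tetrahydrobiopterin synthesis, read 3505 in C57BL/6J against 1423 in BALB/CByJ (1.30), and Nox4, a NADPH oxidase, 940.1 in C57BL/6J and 334 in BALB/CByJ (1.49). Lower in C57BL/6J were Hsd17b6, a dehydrogenase of steroids and retinoids (5534 in C57BL/6J, 12065 in BALB/CByJ, -1.12), and Pgam1, a glycolytic mutase (3408 in C57BL/6J, 7525 in BALB/CByJ, -1.14).

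Lists of other cell types and enzyme families had few members apart. Of 6 measured cholangiocyte markers 1 was lower, Tm4sf4 (-1.03), and of 15 stellate cell and fibroblast markers 1 was higher, Tagln (1.07). Collagens and matrix had 23 measured members and 1 lower, Col5a2 (-1.83). Neutrophil and monocyte markers (4 measured), erythroid markers (5), exocrine pancreas markers (3) and adipocyte markers (4) had 0 members 2-fold apart and medians of 0.03, 0.01, -0.04 and 0.03. A list of carboxylesterases and other drug-metabolising hydrolases and flavin monooxygenases had 17 measured members, and the 1 that was lower was a flavin monooxygenase, Fmo4 (-1.83); the alcohol and aldehyde list had Xdh alone apart among 30. The dawn clock list had 3 measured members, 0 apart and a median of -0.04.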
